A study of Mus musculus with 8 samples.

Results

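The 7 genes described here encode the machinery that presents peptides on major histocompatibility complex (MHC) class II molecules: *H2-Aa*, *H2-Ab1*, *H2-Eb1*, *H2-DMa*, *H2-DMb1*, *Cd74* and *Ciita*. They were taken by symbol from 38368 genes with a summed FPKM value in inguinal (ING) white adipose tissue (WAT) of C57BL/6j mice, and all 7 were found. Poly(A)+ RNA was sequenced from 4 mice at postnatal day (PN) 21, the age of weaning, namely m1, m49, m138 and m145, and from 4 mice at PN98, young adulthood, namely m35, m106, m114 and m125. The labels give strain, depot and age, and no treatment, diet or sex, and nothing in them says whether any of the mice were littermates. Values are FPKM, the fragments of a transcript divided by its length and by the mapped fragments of the library, summed over the transcripts of a gene, so that levels can be compared between genes.

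MHC class II molecules are pairs of an alpha and a beta chain on the surface of antigen presenting cells, mainly B cells, dendritic cells and macrophages, where they show peptides from internalised proteins to CD4 T cells. New class II pairs assemble with the invariant chain, encoded by *Cd74*, which fills the groove and guides them to endosomes. There proteases trim the invariant chain, and H2-DM, the product of *H2-DMa* and *H2-DMb1*, exchanges the remaining fragment for peptides. *Ciita* encodes the coactivator that switches this gene set on, through proteins that bind conserved X and Y boxes in the promoters. Fat depots hold resident macrophages and other antigen presenting cells, and the inguinal depot of the mouse surrounds a lymph node.

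In mm10, which is GRCm38, 5 of the 7 genes lie in the MHC on chromosome 17: *H2-DMa* (ENSMUSG00000037649, chr17:34119541-34139101, plus strand), *H2-DMb1* (ENSMUSG00000079547, chr17:34153072-34160230, plus strand), *H2-Ab1* (ENSMUSG00000073421, chr17:34257689-34269419, plus strand), *H2-Aa* (ENSMUSG00000036594, chr17:34282744-34287823, minus strand) and *H2-Eb1* (ENSMUSG00000060586, chr17:34305867-34316674, plus strand). *Ciita* (ENSMUSG00000022504) lies at chr16:10480059-10528418 on the plus strand. All are protein coding.

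To show the promoter letters that class II genes share, the 150 bases before the start of 2 members are printed 5′ to 3′ on the strand of the gene, as RefSeq gives them in GRCm38.p6. Capitals mark ATTGG, the core of the Y box, and, in *H2-Eb1*, a stretch of 13 bases that the promoter of *H2-DMb1* shares. The windows are chr17:34287824-34287973 for *H2-Aa*, on the minus strand, and chr17:34305717-34305866 for *H2-Eb1*, on the plus strand.
H2-Aa: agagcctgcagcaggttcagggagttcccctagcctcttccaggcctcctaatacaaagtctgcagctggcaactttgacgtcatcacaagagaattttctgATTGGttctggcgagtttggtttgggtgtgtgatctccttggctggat
H2-Eb1: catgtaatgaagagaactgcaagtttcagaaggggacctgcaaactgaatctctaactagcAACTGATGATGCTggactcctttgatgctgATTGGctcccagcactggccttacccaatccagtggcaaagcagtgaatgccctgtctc

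The core ATTGG began at base -48 of *H2-Aa*, -59 of *H2-Eb1* and -61 of *H2-DMb1*, counted from the RefSeq start. For *H2-Aa* and *H2-Eb1* that is also the start in the GENCODE annotation, whereas for *H2-DMb1* the RefSeq start, 34153191, lies 119 bases inside the GENCODE gene, so that these letters fall in its first exon there and the window is not printed. Read on both strands of the 250 bases before to 50 after each start, 37.4% of the 32851 mouse promoters in the table hold ATTGG. The stretch AACTGATGATGCT stood 17 bases before ATTGG in *H2-Eb1* and 18 bases before it in *H2-DMb1*; it was picked after the sequences were seen, and 3 promoters in the table hold it (0.00913%), the other being that of *Slc39a10*. An X box core written as ACANATG was found in 14% of all promoters. In the 4 members with a promoter in the table that were searched, it was found only in *H2-Aa*, on the strand opposite to the gene. The pair of ACANATG followed by ATTGG after 10 to 30 bases, which 0.244% of promoters hold, was found in none of these 4. The stretch shared by *H2-Eb1* and *H2-DMb1* does not hold the letters ACANATG. The search therefore cannot tell whether these promoters have an X box written in other letters. *H2-DMa* had 2 promoters in the table, and 1 of these held ATTGG, at base -198. A match of letters is a description and not a measured binding site.

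The libraries were first checked for tissue and for mice that stand apart. The genes of a list of 6 fat markers differed in level. *Fabp4*, which encodes the fatty acid binding protein of fat cells, lay between 10641 and 20251 FPKM at PN21 and between 27521 and 37466 at PN98, whereas *Plin1*, a lipid droplet gene, lay between 1.73 and 20.2 FPKM in all mice and *Lep*, the leptin gene, between 25.4 and 569 FPKM. *Adipoq*, the gene of the hormone adiponectin, rose from 1075 ± 229 to 2907 ± 509 FPKM (SD, n = 4 each; limma, adjusted p = 0.0111), and *Cfd*, the gene of adipsin, lay between 2262 and 7463 FPKM at PN21 and between 3353 and 12288 at PN98. Epithelial marker genes summed to 1.95 to 27.5 FPKM at PN21 and to at most 1.16 FPKM at PN98. Among these, the keratin genes *Krt5* and *Krt14* reached 13.2 and 10.8 FPKM in PN21 mouse m49, and *Epcam*, a surface protein of epithelia, fell from 1.85 ± 0.62 to 0.304 ± 0.442 FPKM (limma, adjusted p = 0.0424), a call that was lost under other pseudocounts and on leaving out any 1 of m49, m106, m114, m125 and m138. Without m1 or without m145 the mean of *Epcam* was below 1 FPKM, the filter of the comparison, and it was not tested. Of the PN98 mice, m35 stood apart: it was the highest of the PN98 mice for all 12 genes of a B cell list, all 10 of a T cell list and all 4 of a list of lymph node stroma. The results of the members and the counts of each list below are therefore also given without m35 where that changes the call or direction. Since m35 was set apart by its high values in these lists, leaving it out lowers their PN98 means by that choice. It was also the highest PN98 mouse for every member. Values without m35 are therefore descriptions and no evidence of a change with age. *Ddx3y*, a gene of the Y chromosome, lay between 18.1 and 25.9 FPKM in all 8 mice, and *Xist*, which is expressed from the inactive X chromosome, between 0.247 and 0.832 FPKM at PN21 and at 0.00704 or below at PN98. FPKM tables carry no counts of reads, and the depth behind each value is therefore unknown.

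For none of the 7 class II presentation genes did the difference between PN21 and PN98 pass the test. Their levels overlapped between the ages in all 7, and the spread between mice of the same age was larger than the difference between the ages. The highest level of every member was found in PN98 mouse m35 and the lowest in PN98 mouse m125. Within PN21, m138 was the highest mouse for all 7 members, and m49 was the lowest for 6.

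*H2-Aa* encodes the alpha chain of the I-A molecule, the main class II molecule of this strain. Its expression level was 250.2, 237, 569.9 and 385 FPKM in PN21 mice m1, m49, m138 and m145. At PN98 it was 1044, 390.8, 414 and 172 FPKM in m35, m106, m114 and m125. The mean was 361 ± 155 FPKM at PN21 and 505 ± 376 FPKM at PN98 (SD, n = 4 each). Thus 1 PN98 mouse lay above the PN21 range, 2 within it and 1 below it.

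*H2-Ab1*, which encodes the beta chain of I-A, was expressed at 221, 166, 397 and 341 FPKM in m1, m49, m138 and m145. In m35, m106, m114 and m125 it reached 753, 251, 324 and 115 FPKM. *H2-Ab1* therefore followed the same order of the PN98 mice as *H2-Aa*, with m35 at 2.33 times the next PN98 mouse. The ratio of *H2-Ab1* to *H2-Aa* lay between 0.696 and 0.885 at PN21 and between 0.643 and 0.782 at PN98, so that both chains of I-A moved together from mouse to mouse and the ages overlapped.

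*H2-Eb1* encodes the beta chain of I-E, the other class II molecule. In C57BL/6 mice the alpha chain gene of I-E is inactive, and the annotation lists it as the pseudogene *H2-Ea-ps*. Even so, *H2-Eb1* was expressed at 214, 184, 398 and 388 FPKM at PN21 (m1, m49, m138, m145) and at 821, 255, 323 and 139 FPKM at PN98 (m35, m106, m114, m125). Its ratio to *H2-Ab1* stayed between 0.968 and 1.21 in all 8 mice, whereas *H2-Ea-ps* did not exceed 0.266 FPKM in any mouse. The transcript of the I-E beta chain was thus at about the level of that of the I-A beta chain in every mouse, with the transcript of its partner at or near 0.

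*Cd74* (ENSMUSG00000024610, chr18:60803848-60812652, plus strand) had the highest mean level of the 7 genes. Its level was 494, 394, 1006 and 860.3 FPKM at PN21 (m1, m49, m138, m145). At PN98 it was 1560.2, 454, 483 and 169.9 FPKM (m35, m106, m114, m125). The range within PN98, 9.18-fold, was wider than that within PN21, which was 2.55-fold. The transcript Cd74-201, whose coding sequence spans 215 residues, held more than 99.9% of the *Cd74* signal in every mouse, and Cd74-203, of 279 residues, stayed at or below 0.0029 FPKM.

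*H2-DMa* and *H2-DMb1*, the chains of the peptide exchange factor, were expressed far below the I-A chains: the ratio of *H2-DMa* to *H2-Ab1* lay between 0.0807 and 0.13. *H2-DMa* was at 25.6, 20.7, 51.4 and 41.7 FPKM in m1, m49, m138 and m145, and at 81.5, 21, 26.1 and 10.3 FPKM in m35, m106, m114 and m125. *H2-DMb1* was at 24.5, 25, 54.6 and 37.8 FPKM in the same PN21 mice, and at 81.1, 21.8, 27.8 and 7.12 FPKM in the same PN98 mice. Again m35 and m125 bounded the range. *H2-DMb1* and its neighbour *H2-DMb2* are near-identical copies, so the split of fragments between them is uncertain. The sum of both ran from 49.2 to 113.5 FPKM at PN21 and from 9.08 to 159.6 FPKM at PN98, with the same mice at both ends.

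*Ciita*, the coactivator, had the lowest level of the 7 genes and the widest spread. It was expressed at 5.17, 4.58, 14.5 and 5.56 FPKM at PN21 (m1, m49, m138, m145), and at 14.8, 3.37, 3.38 and 0.932 FPKM in PN98 mice m35, m106, m114 and m125. The PN98 mice m106, m114 and m125 lay below all 4 PN21 mice, and m35 lay above them all. The level in m35 was 15.8 times that in m125.

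**Figure D1:**
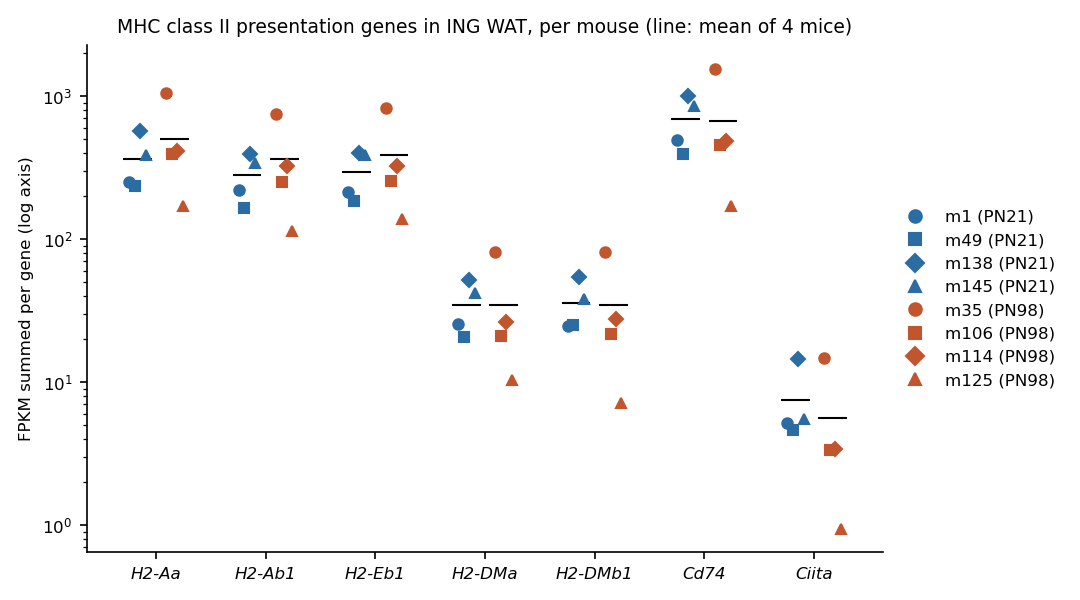
Summed FPKM of the 7 class II presentation genes in each of the 8 mice, on a logarithmic axis, with PN21 mice in blue, PN98 mice in orange and a line at the mean of the 4 mice of an age. For every gene PN98 mouse m35 is the highest and PN98 mouse m125 the lowest, and the PN21 mice lie between them.

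In the comparison of PN98 with PN21 by limma on log2(FPKM + 1), 0 of the 7 members passed an adjusted p of 0.05, where 5.25% of all 16100 genes tested did. All 7 passed the filter on low values, a mean of at least 1 FPKM. Without adjustment, limma gave 0 of 7 with p under 0.05, against 27.2% of all genes. The exact permutation test over the 70 splits of the mice into 4 and 4, two-sided, gave p-values from 0.343 to 0.886, and the smallest p this design allows is 0.0286. Groups that do not overlap were found in 0 of the 7 members and in 16% of all genes tested, of which all PN21 mice lay above all PN98 mice in 9.99% and below them in 6.05%.

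The differences, PN98 minus PN21 on the log2(FPKM + 1) scale, were small against their errors. The 3 class II chains had positive values: 0.29 ± 0.53 (SE) for *H2-Aa* (limma, adjusted p = 0.742), 0.13 ± 0.55 for *H2-Ab1* (adjusted p = 0.898) and 0.16 ± 0.53 for *H2-Eb1* (adjusted p = 0.867). The other 4 had negative values, a direction that 67% of all genes tested had: -0.30 ± 0.58 for *H2-DMa* (limma, adjusted p = 0.753), -0.43 ± 0.64 for *H2-DMb1* (adjusted p = 0.678), -0.38 ± 0.63 for *Cd74* (adjusted p = 0.71) and -0.65 ± 0.62 for *Ciita* (adjusted p = 0.506). The 95% intervals were wide: that of *H2-Aa* ran from -0.93 to 1.51 and that of *Ciita* from -2.07 to 0.78. A rise of 2-fold lies within the interval of *H2-Aa* and a fall of 2-fold within that of *Ciita*, so a missed threshold does not show equal levels. The median difference of the 7 members was -0.30, beside -0.21 over all genes tested.

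Single mice set the sign of most of these values. Without m35 all 7 differences were negative, from -1.21 for *Ciita* to -0.16 for *H2-Aa*, and the median was -0.83, beside -0.27 over all genes. No member passed in limma without m35, with adjusted p-values from 0.0896 for *Ciita* to 0.817 for *H2-Aa*, although 22.1% of all genes then passed. *Ciita* was the 1 member whose remaining groups did not overlap. The share of all genes without overlap was not taken without m35, so this count has no background. Without m125 the differences of *H2-DMa*, *H2-DMb1* and *Cd74* turned positive, at 0.12, 0.13 and 0.13. Without PN21 mouse m49 those of *H2-Ab1* and *H2-Eb1* turned negative, at -0.10 and -0.04.

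**Figure D2:**
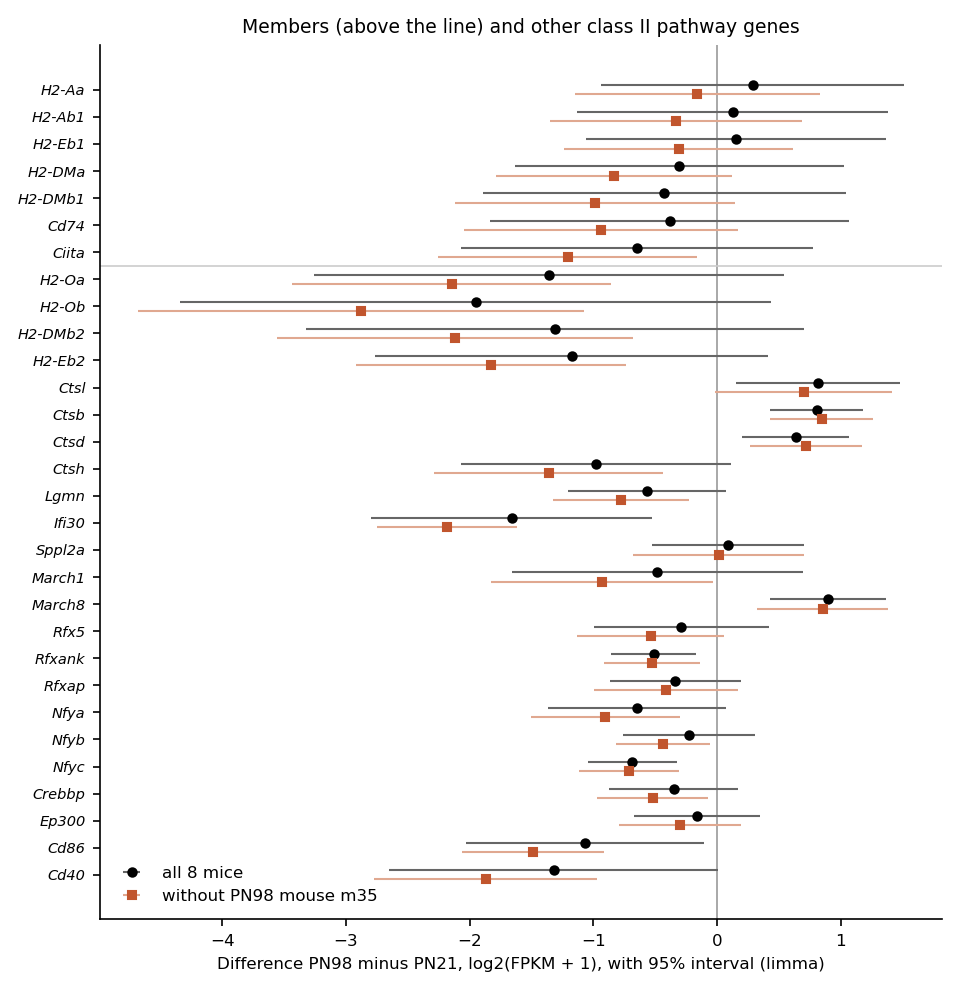
Difference between PN98 and PN21 in log2(FPKM + 1) with its 95% interval from limma for the 7 members, above the line, and for 23 of the 24 other class II pathway genes tested (without *Ctss*), with all 8 mice (black circles) and without PN98 mouse m35 (orange squares). With all 8 mice the intervals of all 7 members cross 0, and without m35 all 7 points lie below 0, with only the interval of *Ciita* not crossing it.

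The members changed in step with each other across mice. Pearson correlations of log2(FPKM + 1) over the 8 mice lay between 0.823 and 0.993 for the 21 pairs of members (median 0.942); these are descriptions, since the 8 points share libraries and 2 mice span most of the range. Each member correlated with the mean profile of the other 6 at 0.908 (*Ciita*) to 0.988 (*H2-DMa*). The ratios between members were less variable than their levels, but they were not constant. These ratios were chosen after the values were seen and were given no test. The share of all gene pairs whose ratio separates the ages was not taken, so a separation has no background.

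The invariant chain was low relative to the class II chains at PN98. The ratio of *Cd74* to the summed *H2-Aa*, *H2-Ab1* and *H2-Eb1* was 0.722, 0.672, 0.737 and 0.772 in PN21 mice m1, m49, m138 and m145. At PN98 it was 0.596, 0.506, 0.455 and 0.4 in m35, m106, m114 and m125. All 4 PN98 mice, including m35, lay below all 4 PN21 mice. The ratio of *H2-DMa* to *H2-Ab1* showed the same separation, with 0.116 to 0.13 at PN21 and 0.0807 to 0.108 at PN98. That of *Ciita* to *H2-Ab1* overlapped, with 0.0163 to 0.0366 at PN21 and 0.00812 to 0.0196 at PN98.

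The other genes of the class II pathway were read from a list of 30, of which 27 were in the table and 24 passed the filter on low values. In limma, 1 was lower and 2 were higher at PN98 with an adjusted p under 0.05; over all genes 2.91% were lower and 2.34% higher. The median difference of the list was -0.50, beside -0.21 over all genes. Without adjustment 4 were lower and 4 higher with p under 0.05, against 19% lower and 8.17% higher over all genes. Without m35, 10 were lower and 3 higher, where 17.8% of all genes were lower and 4.25% higher.

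H2-O, the product of *H2-Oa* and *H2-Ob*, restrains H2-DM and is made mainly in B cells. *H2-Ob* was at 35.8, 31.2, 93.7 and 43.1 FPKM at PN21 (m1, m49, m138, m145), and at 82.6, 21.7, 4.48 and 1.14 FPKM in PN98 mice m35, m106, m114 and m125. *H2-Oa* was at 10.1, 9.94, 28.7 and 18.1 FPKM at PN21 and at 31.4, 6.43, 2.82 and 0.736 FPKM at PN98, with the mice in the same order. In m114 and m125 both genes thus stood at a few FPKM or less while *H2-Ab1* was at 324 and 115 FPKM.

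The ratio of *H2-Ob* to *H2-Ab1* was 0.127 to 0.236 at PN21. At PN98 it was 0.11 in m35, 0.0862 in m106, 0.0138 in m114 and 0.00993 in m125, all below PN21. The ratio of *H2-Oa* to *H2-DMa* was 0.395 to 0.558 at PN21 and 0.0712 to 0.385 at PN98. In both ratios m35 lay just below the lowest PN21 mouse. Neither ratio was preset or tested, and the share of all gene pairs that separate the ages was not taken. With all 8 mice the differences were -1.95 ± 1.04 for *H2-Ob* (SE, log2 scale; limma, adjusted p = 0.251), -1.36 ± 0.83 for *H2-Oa* (adjusted p = 0.309) and -1.31 ± 0.88 for *H2-DMb2* (adjusted p = 0.351). Without m35 limma gave adjusted p-values of 0.0369, 0.0327 and 0.0469 for these genes, with differences of -2.87, -2.14 and -2.12.

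Endosomal proteins of the pathway did not move as one. *Ctsb*, which encodes the lysosomal protease cathepsin B, rose from 219 ± 28.4 to 385 ± 54 FPKM (SD, n = 4 each), and all 4 PN98 mice lay above all 4 PN21 mice (0.81 ± 0.16 on the log2 scale; limma, adjusted p = 0.0325). *Ifi30*, whose product reduces disulfide bonds of internalised proteins, was at 96.2 to 153 FPKM at PN21. In PN98 mice m106, m114 and m125 it was at 26.1, 31.9 and 18.9 FPKM, and in m35 at 110.1 FPKM. Its difference was -1.66 ± 0.50 (limma, adjusted p = 0.0912) with m35 and -2.18 without it (adjusted p = 0.00442). *Ctss*, which encodes cathepsin S, the main protease of the invariant chain, was listed at 0 in 5 of the 8 mice and at 87, 179.1 and 26.4 FPKM in m49, m35 and m125. It stays in the counts and the median of the list and is not drawn in the plot of differences.

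*March8*, which encodes a ubiquitin ligase of membrane proteins and is near kin of the ligase that removes class II from the surface, rose from 16.5 ± 4.45 to 30.7 ± 1.99 FPKM (SD, n = 4 each; limma, adjusted p = 0.0463). All 4 PN98 mice lay above all 4 PN21 mice. Among genes of the proteins that bind the X and Y boxes, *Nfyc*, a subunit of the Y box factor, fell from 18.7 ± 1.94 to 11.3 ± 1.62 FPKM (limma, adjusted p = 0.0485), and the call was lost under both other scalings of the mice. *Rfx5*, a subunit of the X box factor, was at 5.17 to 10.3 FPKM at PN21 and 3.27 to 9.91 FPKM at PN98, with a difference of -0.29 ± 0.31 (limma, adjusted p = 0.553). The calls of *Ctsb*, *March8* and *Nfyc* were each lost on leaving out any 1 mouse other than m35. *Cd86*, a costimulatory ligand that antigen presenting cells show beside class II, had a difference of -1.07 ± 0.42 (limma, adjusted p = 0.155), and of -1.49 without m35 (adjusted p = 0.0105).

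MHC class I presentation, which all nucleated cells carry out, was read from 20 genes, all tested. In limma 0 were lower and 1 was higher at PN98, beside 2.91% and 2.34% of all genes. The median difference was -0.22, beside -0.21 over all genes. Without m35, 3 were lower (*Psme1*, *Calr* and *Pdia3*) and 1 was higher, beside 17.8% and 4.25% of all genes. The median was then -0.49, beside -0.27 over all genes. The 1 gene that passed with all mice was *H2-D1*, a class I heavy chain, with 594 ± 78.5 FPKM at PN21 and 1070.1 ± 214 FPKM at PN98 (SD, n = 4 each; limma, adjusted p = 0.046), a call that was lost on leaving out any 1 mouse other than m35 and m125. *B2m*, the light chain of class I, had a difference of 0.83 ± 0.24 (limma, adjusted p = 0.0817), and it passed with median of ratios scaling (1.07, adjusted p = 0.0154), with scaling to nuclear genes (1.11, adjusted p = 0.0236) and with weighted mice (0.77, adjusted p = 0.0219). *H2-K1*, another heavy chain, had a difference of 0.41 ± 0.26 (limma, adjusted p = 0.323). For *Tap1*, a subunit of the peptide transporter, the difference was -0.27 ± 0.37 (limma, adjusted p = 0.646). *Nlrc5*, the class I counterpart of *Ciita*, was at 11.1 to 33 FPKM at PN21 and 11.5 to 26.5 FPKM at PN98. Class I genes varied less between the PN98 mice than the members: their summed FPKM in m35 was 1.77 times that in m125, whereas the summed members differed 7.1-fold. These sums were not scaled between mice. The median of ratios factor, which follows the middle of all genes in a mouse, was 1.15 in m35 and 0.771 in m125. Part of both ratios is thus shared by most genes.

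Interferon gamma is the best known inducer of *Ciita* outside B cells. *Ifng* itself did not exceed 0.465 FPKM in any mouse. Of 7 genes of its axis that could be tested, 0 passed in limma, while 2 lower and 1 higher had an unadjusted p under 0.05, beside 19% and 8.17% of all genes. Without m35, *Ifngr2*, a chain of the interferon gamma receptor (limma, adjusted p = 0.0146), and *Socs1*, an inhibitor of the signal (adjusted p = 0.0211), were lower. Of all genes 17.8% were then lower. *Irf1*, a transcription factor that interferon gamma induces, was at 41.2 to 64.3 FPKM at PN21 and 28.7 to 63.2 FPKM at PN98 (limma, adjusted p = 0.45), with m138 and m35 at the top of their ages as for the members.

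Among the PN98 mice the summed levels of the B cell, T cell, lymph node stroma, dendritic cell and macrophage lists were, like that of the members, highest in m35 and lowest in m125. The median of ratios factors had the same mice at the ends, at 1.15, 0.908, 0.953 and 0.771 in m35, m106, m114 and m125. The sums below were not scaled by them, so part of each ratio of m35 to m125 is shared by most genes. The lists differed in how far apart these mice lay. The B cell list summed to 343 to 836 FPKM at PN21 and to 854, 185, 61.1 and 10.4 FPKM in PN98 mice m35, m106, m114 and m125. Thus m35 was 81.8 times as high as m125 for B cell genes, against 7.1 times for the members. *Cd79b*, a chain of the B cell receptor, was at 67.6 to 167 FPKM at PN21 and 2.33 to 179 FPKM at PN98, and *Pax5*, the B cell transcription factor, at 76.8 to 176 FPKM and 3.73 to 158 FPKM. In limma 0 of 12 B cell genes passed with all mice, beside 5.25% of all genes. At an unadjusted p under 0.05 there were 0, beside 27.2% of all genes. Without m35, which was set apart by these same genes, 10 of 12 were lower, beside 17.8% of all genes. That choice lowers the PN98 means of the list, so the count is not a test. No gene of the list was at 0 in all mice. In whole tissue, fewer cells of a type and less RNA per cell cannot be told apart.

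The T cell list summed to 305 to 722 FPKM at PN21 and to 589, 98.8, 27 and 17.1 FPKM in m35, m106, m114 and m125. *Cd3g*, a chain of the T cell receptor complex, was at 130 to 305 FPKM at PN21 and 7.28 to 245 FPKM at PN98, and *Lck*, its kinase, at 59.2 to 137 FPKM and 2.28 to 112 FPKM. In limma 0 of 10 T cell genes passed with all mice, beside 5.25% of all genes. Of these 10, 7 were lower with an unadjusted p under 0.05, beside 19% of all genes. Without m35, set apart by these genes too, 10 of 10 were lower, beside 17.8% of all genes. The list of lymph node stroma summed to 159 to 384 FPKM at PN21 and to 403, 46.3, 13.5 and 12.1 FPKM in the PN98 mice. *Ccl21a*, a chemokine that draws lymphocytes into lymph nodes, was at 119 to 285 FPKM at PN21 and at 304, 25.6, 4.23 and 2.07 FPKM in m35, m106, m114 and m125. *Cxcl13*, which draws B cells into follicles, was at 17 to 59.7 FPKM and 7.7 to 54.2 FPKM. *Madcam1*, the adhesion receptor of lymphoid vessels, was the 1 gene of 4 that was lower with all mice (limma, adjusted p = 0.0349), beside 2.91% of all genes. It was at 3.39 to 7.15 FPKM at PN21 and at most 2.64 FPKM at PN98. This call too was lost on leaving out any 1 mouse other than m35. Without m35, 3 of the 4 were lower, *Ccl21a* among them (limma, adjusted p = 0.00901), beside 17.8% of all genes. This count too depends on a mouse that was set apart by these genes. The part of these cells in the levels of the members was not tested.

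The macrophage list was flatter in its sum than the lists above, but its genes were mixed. Of its 12 genes, 5 were highest in m35 among the PN98 mice. The highest of the 8 mice over the lowest was 4.97 for *Lyz2* and 5.25 for *Cd68*, near the 5.92 of *H2-Eb1*, but 2.09 for *Cd163*. The macrophage list summed to 675 to 1173 FPKM at PN21 and to 1209, 595, 871 and 368 FPKM in m35, m106, m114 and m125, so that m35 was 3.28 times as high as m125. *Lyz2*, which encodes lysozyme, was at 287 to 551 FPKM at PN21 and 135 to 669 FPKM at PN98, and *C1qa*, a complement chain, at 87.3 to 217 FPKM and 67.1 to 153 FPKM. In limma 0 of 12 passed with all mice, beside 5.25% of all genes, and 0 without m35, beside 22.1%. With all mice 0 lower and 1 higher had an unadjusted p under 0.05, beside 19% and 8.17% of all genes. Dendritic cell genes were divided: *Clec10a*, a lectin that some macrophages also carry, was at 57.6 to 110.2 FPKM at PN21 and 48.5 to 114.2 FPKM at PN98. *Fscn1*, an actin bundling protein of mature dendritic cells, was at 74.1 to 194 FPKM and 9.97 to 86.6 FPKM. In limma 0 of 10 dendritic cell genes passed with all mice, beside 5.25% of all genes. Of these 10, 4 were lower with an unadjusted p under 0.05, beside 19% of all genes. Without m35, 4 were lower, beside 17.8% of all genes. The dendritic cell list summed to 212 to 405 FPKM at PN21 and to 298, 134, 176 and 67.8 FPKM in m35, m106, m114 and m125. For this list m35 was 4.4 times as high as m125.

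**Figure D3:**
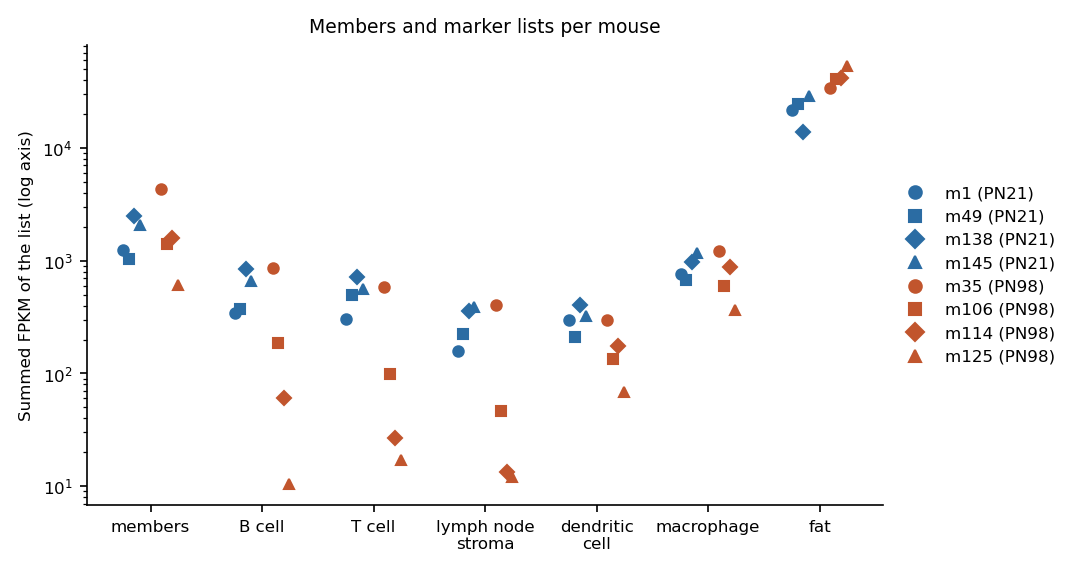
Summed FPKM of the 7 members and of 6 marker lists in each mouse, on a logarithmic axis, with PN21 mice in blue and PN98 mice in orange. From m35 to m125 the B cell, T cell and lymph node stroma lists span 81.8-fold, 34.5-fold and 33.2-fold, the members 7.1-fold, the dendritic cell list 4.4-fold and the macrophage list 3.28-fold. The sums are not scaled between mice.

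From m106 to m114, both PN98 mice, the B cell list was lower while the members were higher or level. The B cell list stood at 185 FPKM in m106 and 61.1 FPKM in m114, while *H2-Aa* stood at 390.8 and 414 FPKM and *H2-Ab1* at 251 and 324 FPKM. *Cd74* stood at 454 and 483 FPKM and *Ciita* at 3.37 and 3.38 FPKM. The macrophage list stood at 595 and 871 FPKM in these mice. Set against *Cd79a*, a B cell receptor chain picked for this ratio after its values were seen, *H2-Ab1* was 2.62 to 3.79 times as high at PN21. At PN98 that ratio was 4.79 in m35, 7.81 in m106, 31.2 in m114 and 86.7 in m125. Set against *Cd68*, a macrophage gene picked in the same way, *H2-Ab1* was 6.14 to 11.2 times as high at PN21 and 9.8 to 15.2 times at PN98. The ratio to the B cell gene thus spread over a wide range with no overlap between the ages, whereas that to the macrophage gene overlapped. By the median Pearson r over all 8 mice, given below, B cell genes were nearer to the members than macrophage genes, at 0.824 against 0.666. Which cells the levels of the members come from was not tested.

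**Figure D4:**
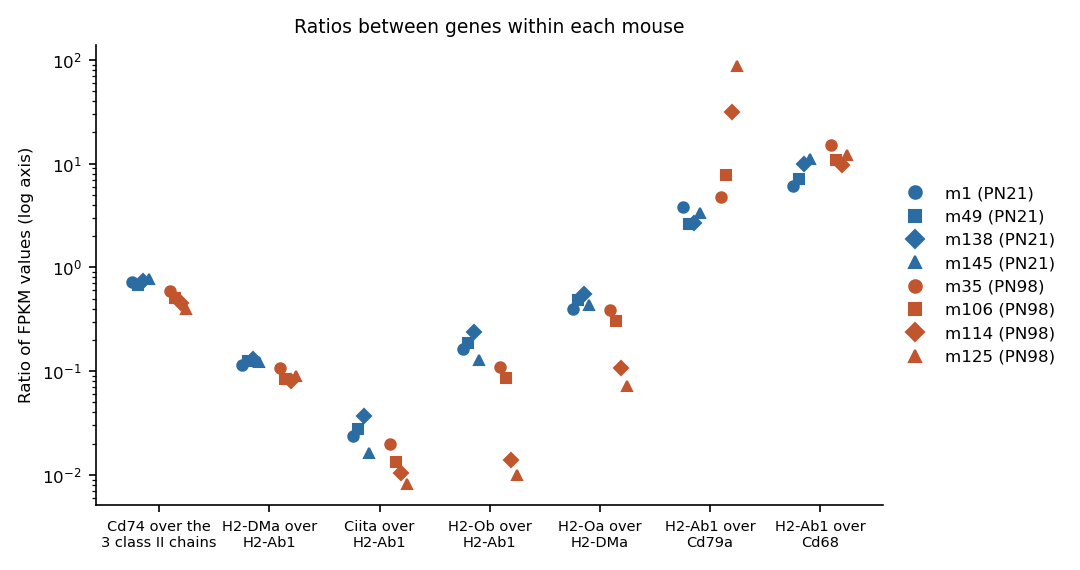
Ratios of FPKM values between genes within each mouse, on a logarithmic axis, with PN21 mice in blue and PN98 mice in orange; the 3 class II chains are *H2-Aa*, *H2-Ab1* and *H2-Eb1*. The ratio of *Cd74* to these chains is 0.672 to 0.772 at PN21 and 0.4 to 0.596 at PN98, and the ratio of *H2-Ab1* to *Cd79a* reaches 86.7 in PN98 mouse m125.

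The genes most like the members were ranked by Pearson's r over the 8 mice with the mean profile of the 7 members. The 12 nearest were *Igkv3-4*, *Cd55*, *Igkv8-24*, *Sptlc2*, *Sesn1*, *Btg1*, *Ptk2b*, *Susd1*, *Casp4*, *Pla2g2d*, *Scimp* and *Il10rb*, with r from 0.988 to 0.966. *Igkv3-4* and *Igkv8-24* are immunoglobulin light chain segments, which share sequence with other segments, so that their levels are uncertain. *Scimp* encodes an adaptor of antigen presenting cells, and *Il10rb* a chain of the interleukin 10 receptor. With r taken on the deviations from the mean of each age, none of these 12 stayed among the first 12. The first 12 were then *Lrrk1*, *Tmem206*, *Spi1*, *Arid3a*, *Tlr2*, *Stap2*, *Sharpin*, *Stoml1*, *Prkx*, *Slc7a7*, *Themis2* and *Panx1*. Among them *Spi1* encodes the myeloid and B cell transcription factor, a trait given after its value was seen. Its r was 0.994 on the deviations and 0.872 without that step. Over the marker lists the median r was 0.824 for B cells, 0.682 for lymph node stroma, 0.675 for T cells and 0.666 for macrophages. It was 0.654 for dendritic cells and -0.30 for fat genes, beside 0.357 over all genes. On the deviations the medians were 0.923 for B cells, 0.871 for dendritic cells and 0.869 for lymph node stroma. They were 0.837 for T cells, 0.669 for macrophages and -0.47 for fat genes, beside 0.448 over all genes. Within the lists r ran from 0.225 to 0.926 (*Lyz2*) for macrophage genes and from 0.625 to 0.73 (*Cd2*) for T cell genes. *Lyz2* and *Cd2* are named here after their values were seen.

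The make-up of the members by transcript limits what a summed level means. *Ciita* and *H2-Eb1* had 1 transcript each. In *H2-Aa*, H2-Aa-201, of 256 residues, held 44.4% to 56.5% of the sum and H2-Aa-204, of 173 residues, 41% to 53.8%. In *H2-Ab1*, H2-Ab1-201, of 265 residues, held 77.9% to 94% and 2 transcripts with a retained intron held the rest.

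For H2-DM, much of the sum came from transcripts that code for no protein. H2-DMa-202, with a retained intron, held 34.4% to 61% of *H2-DMa*, and H2-DMb1-203, a processed transcript, held 4.74% to 52.6% of *H2-DMb1*. Of the 16 transcripts of the members, 14 were above 0 in all mice with a mean above 2 FPKM at either age. In limma on log2 FPKM 0 of these 14 passed, where 1.4% of all 22870 transcripts did, and 0 had an unadjusted p under 0.05, where 21.8% did. The coding H2-DMa-201 had a difference of -0.64 ± 0.57 (limma, adjusted p = 0.502), and H2-DMa-202 of 0.0041 ± 0.71 (adjusted p = 0.998).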

How the data were processed

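Paired-end reads of poly(A)+ RNA were mapped to mm10 with STAR 2.3.0 and quantified by transcript with Cufflinks 2.1.1 on a Gencode annotation; the library kit was directional, and the strand setting of the quantification is not given in the sources used here. The authors deposited FPKM values, in which 40426 of 91969 transcripts had lost a decimal mark. These were restored from the SD, average and score deposited beside them; 40403 had 1 reading, and all 5019 that the authors also deposited with intact decimals agreed in all mice. *Glycam1* kept more than 1 reading and was left out. Columns of the authors' own comparison (fold changes and p-values) were not used. FPKM were summed per gene by GENCODE vM21; transcripts that overlap *Cd74*, *H2-Eb1* and *Ciita* were kept with their own genes.

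Genes with a mean of at least 1 FPKM were compared as log2(FPKM + 1), PN98 minus PN21, with limma 3.58.1 in R 4.3.3 and Benjamini-Hochberg adjustment over all genes; the script was tested on simulated data. Transcripts above 0 in all mice with a mean above 2 FPKM at an age were compared as log2 FPKM. Other pseudocounts, filters, scalings, mouse weights and leaving out each mouse were tried. The genes and lists were chosen with earlier results of these data known. Named genes are the members, preset pathway genes, the 2 highest of each marker list, genes past the threshold and the 12 nearest profiles. The 12 nearest on the deviations were added after the values were seen. One gene of the interferon gamma axis is not reported here.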

Additional observations from a re-analysis of the deposited data

Results flagged for a closer look

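Among 42 named genes, tested in both ages, 14 values stood farther from the other 3 mice of their age than Dixon's test allows at the 95% level; chance flags about 1 in 20 such groups. The numbers give the gap to the nearest mouse as a share of the range of that age. One was a member: *Ciita* in PN21 mouse m138, at 14.5 FPKM, with a share of 0.902. *Irf1* stood apart in the same mouse (0.909).

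PN98 mouse m35 was the highest in 10 of the 14. These were *Ifi30* (0.858), *Cd86* (0.851), *Tap1* (0.858), *Irf1* (0.885), *Madcam1* (0.924), *Epcam* (0.889), *Ctss* (0.853), *Cd3g* (0.861), *Lck* (0.847) and *Ccl21a* (0.922). For the members themselves m35 was also the highest PN98 mouse, but the gap stayed within Dixon's limit. The remaining values were *Ctss* in m49 (a share of 1), where the other PN21 mice are listed at 0, and *Cfd*, the gene of the fat cell product adipsin, in m145 (0.86).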

How the results depend on the processing

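No member passed an adjusted p of 0.05 in limma under any alternative run. The sign of its difference was the same in 111 of 119 member values and turned in 8, all on leaving out 1 mouse: without m35, *H2-Aa* -0.16, *H2-Ab1* -0.33 and *H2-Eb1* -0.31; without m49, *H2-Ab1* -0.10 and *H2-Eb1* -0.04; without m125, *H2-DMa* 0.12, *H2-DMb1* 0.13 and *Cd74* 0.13. Leaving out 1 mouse gave -0.16 to 0.71 for *H2-Aa*, -0.33 to 0.57 for *H2-Ab1*, -0.31 to 0.54 for *H2-Eb1*, -0.83 to 0.12 for *H2-DMa*, -0.98 to 0.13 for *H2-DMb1*, -0.94 to 0.13 for *Cd74* and -0.27 to 0.26 for *Nlrc5*. *Nlrc5* turned to 0.17 with median of ratios scaling, 0.21 with scaling to nuclear genes, 0.11 without m125 and 0.26 without m138. These scalings moved the median of all genes from -0.21 to -0.02 and 0.02, that of the members from -0.30 to -0.08 and -0.04, and the share of lower among called genes from 55.4% to 37.2% and 31.2%. The count of all genes called, 845 of 16100, became 4644 with arrayWeights, 1221 with median of ratios scaling, 538 with a mean of at least 5 FPKM, and 210 to 3528 on leaving out 1 mouse, the highest without m35. Counts of called genes moved as follows: the other class II pathway genes, 3, became 1 with a pseudocount of 0.1 and 0 to 13 on leaving out 1 mouse; class I genes, 1, became 0 with that pseudocount, 2 with either scaling and 0 to 4; the interferon gamma axis, 0, became 1 with median of ratios scaling and 0 to 2. On leaving out 1 mouse, B cell and T cell genes, 0 each, became 0 to 10 each, dendritic cell genes, 0, became 0 to 4, and lymph node stroma genes, 1, became 0 to 3. All these highest counts came without m35. Calls of single genes ended with a pseudocount of 0.1 (*March8*, *Nfyc*, *H2-D1*, *Madcam1*, *Epcam*) or 5 (*Epcam*), without a filter (*March8*, *Madcam1*, *Epcam*), with a trend (*H2-D1*, *Epcam*) and under both scalings (*Nfyc*); *B2m* passed under both scalings, and *B2m*, *Ifi30* and *Cd86* with arrayWeights. The cause was not tested. Leaving out mice for marker lists and the interferon axis was added after the data were seen. No paired analysis was made: each mouse was killed at 1 age for its tissue, so the ages hold different mice, and the labels link none of them. FPKM without read counts gives no limit of detection.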
